A study of Rattus norvegicus with 18 samples.

Results

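The platelet-derived growth factor (PDGF) family was followed through the lungs of rats that had received a multiwalled carbon nanotube (MWCNT) repeatedly for up to 2 years. Its members were set by gene symbol: the 4 ligand genes Pdgfa, Pdgfb, Pdgfc and Pdgfd, the 2 receptor genes Pdgfra and Pdgfrb, and the receptor-like gene Pdgfrl. The choice was made with earlier results of these data known. All 7 were found among the 22081 genes of the count tables, and all 7 passed the filter on low counts at every time point.

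Male F344/DuCrlCrlj rats were instilled into the trachea from 9 weeks of age, every 4 weeks, with MWNT-7, a commercial MWCNT, at 0.5 mg/kg, or with its vehicle alone, saline containing Tween 80. There were 6 groups of 3 rats, a control and an MWCNT group for each of Year 0.5, Year 1 and, last, Year 2, all of the same strain. RNA-Seq was performed on tissue of the accessory lobe that held no tumor, so the values describe mixed lung tissue rather than sorted cells. In such bulk tissue fewer cells of a type and less RNA per cell cannot be told apart. The libraries held 13297643 to 17868851 counts in the 9 control rats against 14661589 to 21130757 in the 9 MWCNT rats. The labelled tissue was checked against lung genes: at Year 0.5 the control rats held 20141 ± 1042 TPM (a transcript's share of the library, corrected for its length; mean ± SD, n = 3) of Sftpc, which encodes surfactant protein C, and 2181 ± 153 TPM of Ager, a gene of flat alveolar type 1 cells. Transcripts of heart muscle were also present, at a summed TPM of 72.9 to 670 for 7 genes over the control rats and 15.6 to 202 over the MWCNT rats.

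PDGFs are secreted as disulfide-linked dimers that pair receptor chains, and the paired receptors phosphorylate each other on tyrosines. The A and C chains act mainly through the alpha receptor, the D chain mainly through the beta receptor, and the B chain binds both. PDGF-A and PDGF-B are trimmed inside the cell, whereas PDGF-C and PDGF-D leave the cell latent and need an extracellular protease to release the active domain. In the lung, epithelium supplies PDGF-A to fibroblasts that carry the alpha receptor, as in alveolar septum formation, and endothelium supplies PDGF-B to pericytes that carry the beta receptor. The family is also well known from fibrosis, where PDGFs drive the growth and migration of mesenchymal cells.

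In the Rnor_6.0 build of the count tables, Pdgfa (ENSRNOG00000001312) lay on chromosome 12 at 17734133 to 17755285, Pdgfb (ENSRNOG00000017197) on chromosome 7 at 121214628 to 121232741, Pdgfc (ENSRNOG00000010695) on chromosome 2 at 179952227 to 180128283 and Pdgfd (ENSRNOG00000029148) on chromosome 8 at 4440876 to 4669014. The receptor genes Pdgfra (ENSRNOG00000002244), Pdgfrb (ENSRNOG00000018461) and Pdgfrl (ENSRNOG00000010832) lay on chromosome 14 at 35527927 to 35581031, chromosome 18 at 56364620 to 56406381 and chromosome 16 at 54386288 to 54450426. The 7 genes were thus spread over 7 chromosomes. The 250 bases before the annotated start are shown for Pdgfa, the ligand with the largest fall at Year 2, and for its receptor, taken from RefSeq in the GRCr8 build and written 5′ to 3′ on the strand of the gene. Capitals mark matches, on either strand, to 4 short motifs. These were GGGCGG, known as the GC box, TATAAA, known as the TATA box, the promoter motif CCAAT, and GAGACC, described as a shear stress element in a PDGF promoter. None of these 4 motifs overlapped another in these windows.
Pdgfa (chr12:20759116-20759365, plus strand): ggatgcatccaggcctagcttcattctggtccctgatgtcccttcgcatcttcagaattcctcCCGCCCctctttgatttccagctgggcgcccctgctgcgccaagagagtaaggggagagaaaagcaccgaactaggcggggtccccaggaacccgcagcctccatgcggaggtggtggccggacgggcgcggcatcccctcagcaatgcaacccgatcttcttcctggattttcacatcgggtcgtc
Pdgfra (chr14:33408517-33408766, minus strand): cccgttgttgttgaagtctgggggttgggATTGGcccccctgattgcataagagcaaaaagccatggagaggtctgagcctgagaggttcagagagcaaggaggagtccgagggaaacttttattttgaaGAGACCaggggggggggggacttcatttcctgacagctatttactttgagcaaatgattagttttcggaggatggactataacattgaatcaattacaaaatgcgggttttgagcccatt
The Pdgfa window held 1 GC box on the minus strand, starting 187 bases before the start, and the Pdgfra window held 1 CCAAT on the minus strand at 221 bases and 1 GAGACC on the plus strand at 120 bases before it. Of the 5 members with such a window, Pdgfa, Pdgfb and Pdgfd each held 1 GC box, and no member held TATAAA. Among all 33469 promoter windows of this length, 30.5% held the GC box, 12.9% TATAAA, 34.0% CCAAT and 13.7% GAGACC. G and C made up 60.8% of the Pdgfa window and 47.2% of the Pdgfra window, against a median of 51.2% over all windows.

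Levels between genes were compared in TPM, which divides by transcript length. In the 9 control rats Pdgfb was the most abundant member, at 131 ± 30.3 TPM (mean ± SD, n = 9), followed by Pdgfra at 83.0 ± 14.04, Pdgfrb at 60.7 ± 6.65 and Pdgfa at 55.4 ± 5.82. Pdgfc, at 7.62 ± 1.34 TPM, and Pdgfd, at 6.77 ± 1.12 TPM, were much lower, and Pdgfrl was lowest at 2.69 ± 0.840 TPM. Some neighbours in this order did not separate: in control rats Pdgfb exceeded Pdgfra in 8 of 9, Pdgfrb exceeded Pdgfa in 6 of 9 and Pdgfc exceeded Pdgfd in 7 of 9. Pdgfra stood above Pdgfrb, Pdgfa above Pdgfc and Pdgfd above Pdgfrl in all 9. In MWCNT rats the order of the means was the same but the overlaps moved: Pdgfra exceeded Pdgfrb in 6 of 9 and Pdgfd exceeded Pdgfrl in 7 of 9, while Pdgfrb stood above Pdgfa, and Pdgfc above Pdgfd, in all 9.

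**Figure D1:**
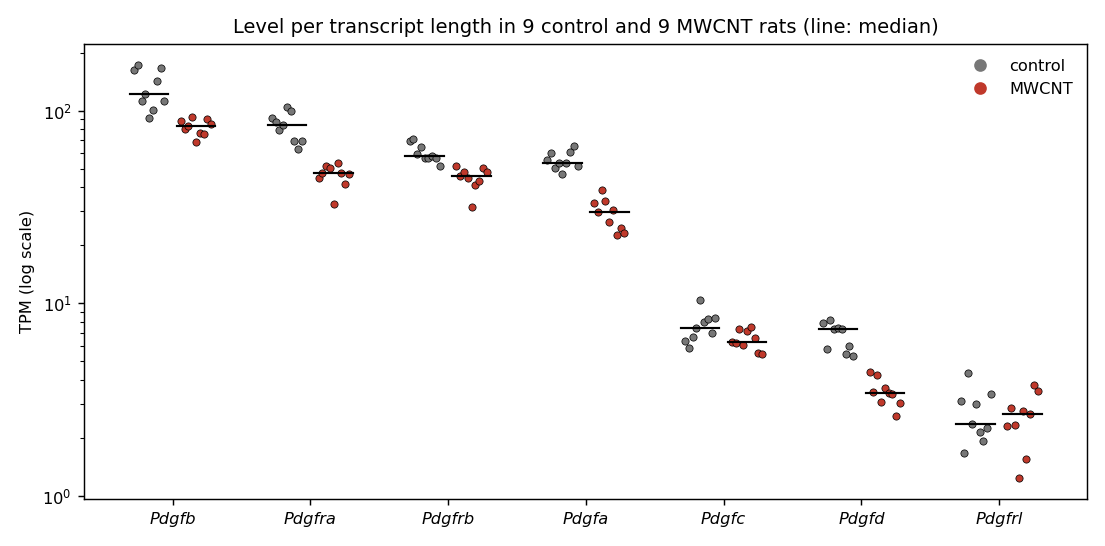
TPM on a log scale of each member in the 9 control and 9 MWCNT rats, in order of the control mean, with 1 point per rat and a line at the median. Pdgfb, Pdgfra, Pdgfrb and Pdgfa lay at 22.5 TPM or above in every rat, and Pdgfc, Pdgfd and Pdgfrl at 10.4 TPM or below.

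MWCNT rats were compared with control rats of the same year by edgeR's quasi-likelihood test over all genes with enough counts, with the false discovery rate (FDR) over all of them, and a gene is said to have risen or fallen only where FDR was below 0.05. Of the 7 members, 5 fell at Year 0.5 (Pdgfa, Pdgfb, Pdgfd, Pdgfra and Pdgfrb), 4 at Year 1 (Pdgfa, Pdgfd, Pdgfra and Pdgfrb) and 4 at Year 2 (Pdgfa, Pdgfb, Pdgfd and Pdgfra), and none rose. Of all genes tested, 18.6%, 19.6% and 24.0% fell in those years. The median log2 fold change of the 7 members was -0.56, -0.38 and -0.35, beside -0.02, 0.00 and -0.01 over all genes tested. Under the stricter criterion for a significantly differentially expressed gene (DEG), which also asks for an absolute log2 fold change above 1, Pdgfa at Year 2 was the single member called. Lower DEGs made up 3.03%, 4.09% and 8.22% of all genes tested at the 3 years. No member was a DEG at Year 0.5 or Year 1 in edgeR or DESeq2. The 5 and 4 members that fell in those years did not reach its fold change.

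**Figure D2:**
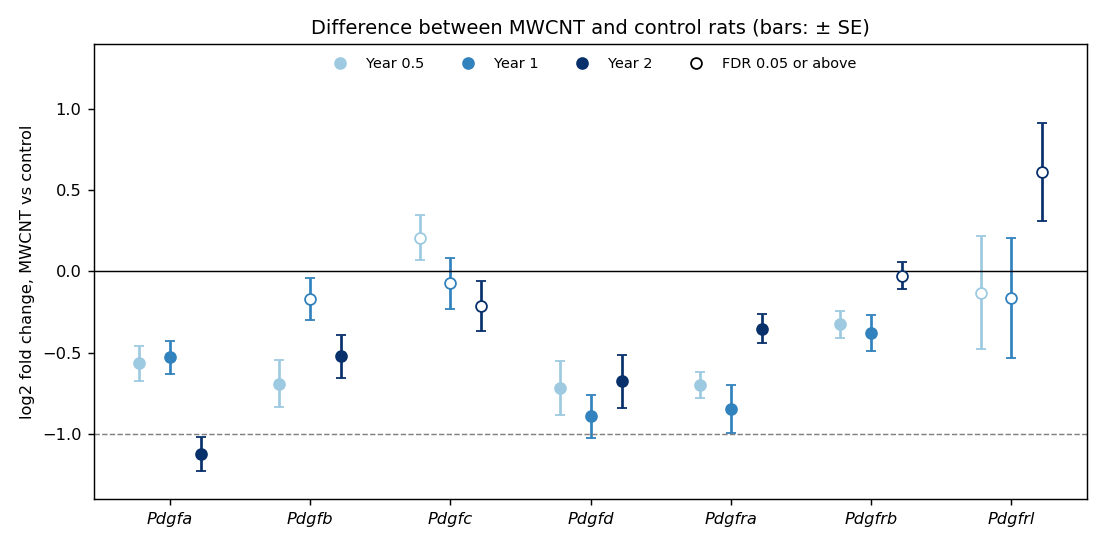
Log2 fold change of each member, MWCNT against control, at the 3 years, with bars of ± SE from edgeR (3 rats against 3). Filled points had FDR below 0.05, open points did not, and the dashed line marks the fold change of a DEG, which only Pdgfa at Year 2 (-1.12) passed.

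Values per rat are given below as CPM, the share of a rat's reads, after trimmed mean of M-values (TMM) scaling, in the order of replicates 1 to 3, and serve to compare groups rather than genes. All 3 MWCNT rats lay below all 3 control rats in this unit for Pdgfa, Pdgfd and Pdgfra at every year, for Pdgfb at Year 0.5 and Year 2, and for Pdgfrb at Year 0.5 and Year 1. Of all genes tested, 25.5%, 26.9% and 28.9% showed such a separation at the 3 years. In TPM, which lacks this scaling, the median log2 fold change of all genes was shifted to -0.15, -0.21 and -0.20 at the 3 years.

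**Figure D3:**
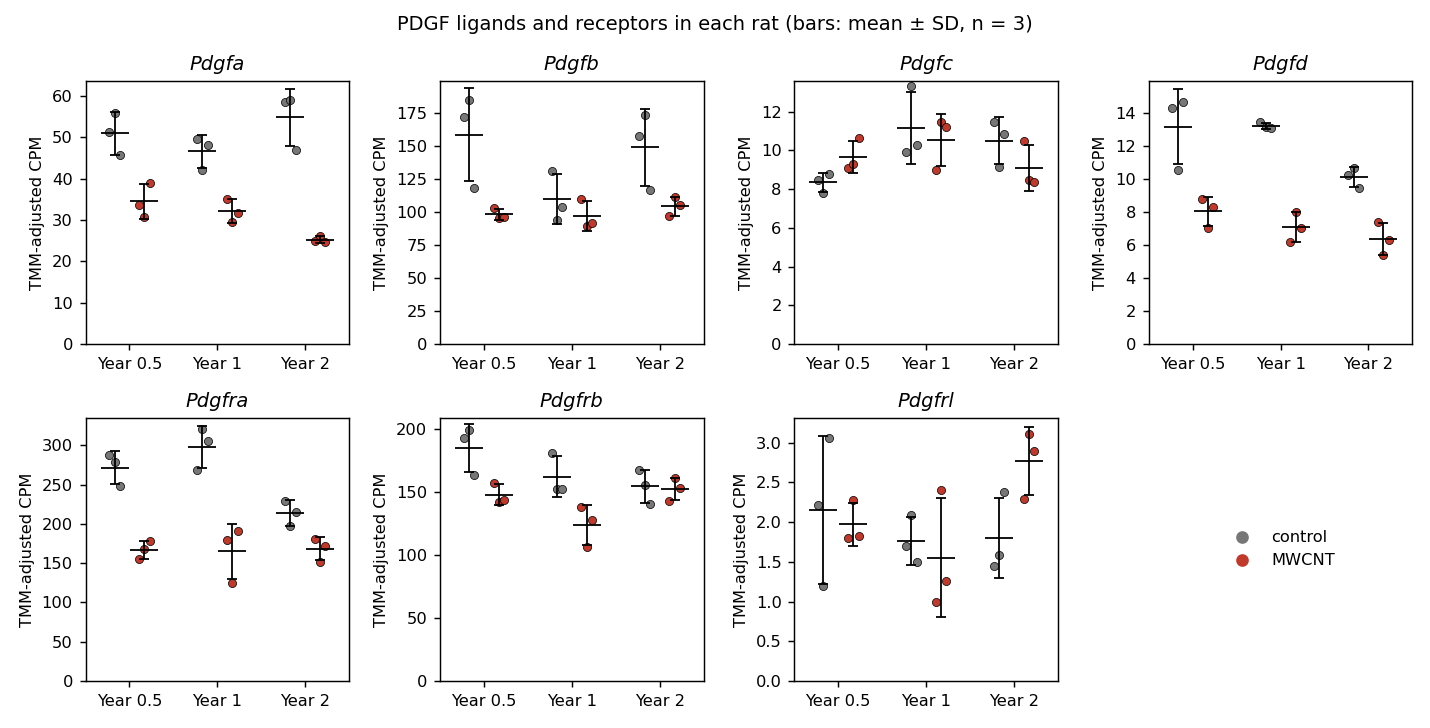
TMM-adjusted CPM of each member in each rat at the 3 years, grey for control and red for MWCNT, with mean ± SD (n = 3 rats). Each panel has its own axis from 0, and the 2 colours do not overlap for Pdgfa, Pdgfd and Pdgfra at any year.

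Pdgfa encodes the A chain, the main ligand of the alpha receptor, and it fell at every year. In control rats it stood at 51.1, 55.9 and 45.7 CPM at Year 0.5, at 49.5, 42.0 and 48.2 CPM at Year 1 and at 58.5, 59.0 and 46.9 CPM at Year 2. The MWCNT rats held 33.6, 30.8 and 38.9 CPM, then 35.2, 29.4 and 31.7 CPM, then 24.8, 26.2 and 24.7 CPM. Every MWCNT rat thus lay below every control rat of its year, and the Year 2 MWCNT rats were the lowest and the closest together. On the log2 scale Pdgfa fell by 0.56 at Year 0.5 (SE 0.11, edgeR FDR 0.00324), by 0.53 at Year 1 (SE 0.10, FDR 0.00313) and by 1.12 at Year 2 (SE 0.10, FDR 2.92e-05). The Year 2 log2 difference stayed between -1.22 and -1.07 as each rat was left out in turn.

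Pdgfb encodes the B chain, which binds both receptors and is the endothelial signal that recruits pericytes. Its control rats held 172, 185 and 118 CPM at Year 0.5, 131, 94.1 and 104 CPM at Year 1 and 157, 173 and 116 CPM at Year 2. The MWCNT rats held 103, 95.7 and 95.9 CPM, then 110.0, 89.0 and 91.7 CPM, then 96.7, 111 and 105 CPM. The MWCNT level was nearly flat across years, and the control rats were spread widely, with 1 control rat in Year 0.5 and 1 in Year 2 close to the MWCNT range. Pdgfb fell by 0.69 at Year 0.5 in log2 units (SE 0.14, edgeR FDR 0.00518) and by 0.52 at Year 2 (SE 0.13, FDR 0.00990). At Year 1 the groups overlapped and the log2 difference was -0.17 (SE 0.13, FDR 0.326), although limma on log2(TPM + 1) gave -0.39 (FDR 0.0407). The median gene of that limma fit was shifted by -0.21.

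Pdgfd encodes a latent ligand of the beta receptor and was reduced at all 3 years. The control rats held 14.3, 10.6 and 14.6 CPM at Year 0.5, 13.4, 13.2 and 13.1 CPM at Year 1 and 10.2, 10.7 and 9.44 CPM at Year 2. In MWCNT rats these were 8.76, 7.05 and 8.33 CPM, then 6.21, 8.01 and 7.01 CPM, then 7.37, 5.42 and 6.33 CPM. The groups did not overlap in any year, and both were lowest at Year 2. Pdgfd fell by 0.72 at Year 0.5 in log2 units (SE 0.16, edgeR FDR 0.00866), by 0.89 at Year 1 (SE 0.13, FDR 0.000908) and by 0.68 at Year 2 (SE 0.16, FDR 0.00716). With library size scaling alone the Year 1 log2 difference was -1.03 (FDR 0.00039), past the fold change of a DEG.

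Pdgfc encodes the other latent ligand, which acts mainly through the alpha receptor, and it did not pass the test in any year. The control rats held 8.45, 7.82 and 8.79 CPM at Year 0.5, 9.89, 13.3 and 10.3 CPM at Year 1 and 11.5, 9.16 and 10.8 CPM at Year 2. The MWCNT rats held 9.10, 9.28 and 10.6 CPM, then 8.99, 11.5 and 11.2 CPM, then 10.5, 8.47 and 8.35 CPM. At Year 0.5 the 3 MWCNT rats lay above the 3 control rats, as they did for 26.2% of all genes tested, and at Year 1 and Year 2 the groups overlapped. The log2 differences were 0.21 (SE 0.14, edgeR FDR 0.259), -0.07 (SE 0.16, FDR 0.736) and -0.21 (SE 0.16, FDR 0.286). The Year 1 value ranged from -0.15 to 0.07 as single rats were left out. On TPM the Year 2 difference passed, at -0.37 with limma on log2(TPM + 1) (FDR 0.0400), where the median gene was shifted by -0.20.

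Pdgfra encodes the alpha receptor, a marker of lung fibroblasts, and fell at every year. In control rats it stood at 288, 278 and 248 CPM at Year 0.5, at 268, 321 and 306 CPM at Year 1 and at 229, 197 and 216 CPM at Year 2. In MWCNT rats it stood at 155, 168 and 178 CPM, then at 179, 125 and 192 CPM, then at 181, 152 and 172 CPM. The MWCNT means were close to each other, at 167 ± 11.5, 165 ± 35.2 and 168 ± 14.7 CPM (SD, n = 3), whereas the control mean was 272 ± 20.9, 298 ± 27.0 and 214 ± 16.3 CPM. Pdgfra fell by 0.70 at Year 0.5 in log2 units (SE 0.08, edgeR FDR 0.000225), by 0.84 at Year 1 (SE 0.15, FDR 0.00212) and by 0.35 at Year 2 (SE 0.09, FDR 0.00920). The Year 1 difference included the MWCNT rat at 125 CPM, and over the 6 fits that each left out 1 rat it ranged from -0.97 to -0.69 with FDR at most 0.0108.

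Pdgfrb encodes the beta receptor of pericytes and smooth muscle, and at Year 0.5 and Year 1 its fall was the smallest among the members that passed in that year. The control rats held 193, 199 and 164 CPM at Year 0.5, 181, 153 and 153 CPM at Year 1 and 168, 156 and 141 CPM at Year 2. The MWCNT rats held 158, 142 and 144 CPM, then 138, 107 and 128 CPM, then 143, 161 and 153 CPM. The groups were apart at the first 2 time points and fully interleaved at Year 2. Pdgfrb fell by 0.32 at Year 0.5 in log2 units (SE 0.08, edgeR FDR 0.0151) and by 0.38 at Year 1 (SE 0.11, FDR 0.0229), and the Year 2 difference was -0.03 (SE 0.08, FDR 0.819). The Year 0.5 call was lost without control replicate 1 (FDR 0.0609), control replicate 2 (FDR 0.0527), MWCNT replicate 2 (FDR 0.0703) or MWCNT replicate 3 (FDR 0.0554), and the Year 1 call without control replicate 1 (FDR 0.0723). On TPM the Year 2 difference was -0.23 with limma on log2(TPM + 1) (FDR 0.0424), within a table whose median gene was shifted by -0.20.

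Pdgfrl encodes a secreted protein that resembles the outside of a PDGF receptor and has no kinase, and it had the fewest reads of the family, with 15 to 50 counts per rat. Its control rats held 2.22, 1.197 and 3.06 CPM at Year 0.5, 1.70, 2.09 and 1.498 CPM at Year 1 and 1.44, 1.59 and 2.38 CPM at Year 2. In MWCNT rats it stood at 1.81, 2.28 and 1.82 CPM, then at 0.991, 2.40 and 1.26 CPM, then at 2.29, 3.11 and 2.90 CPM. The groups overlapped at every year. The log2 differences of -0.13 (SE 0.35, edgeR FDR 0.792), -0.16 (SE 0.37, FDR 0.747) and 0.61 (SE 0.30, FDR 0.121) did not pass, and their SE was the highest of the family in each year. The sign was not stable to single rats: the Year 0.5 value ranged from -0.41 without control replicate 2 to 0.20 without control replicate 3, and the Year 1 value from -0.64 without MWCNT replicate 2 to 0.07 without MWCNT replicate 1.

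Within a rat, the balance of ligands and of receptors was described by ratios of TPM, which do not depend on the scaling between rats. The Pdgfb to Pdgfa ratio was 2.67 ± 0.371 in control and 2.49 ± 0.308 in MWCNT rats at Year 0.5 (mean ± SD, n = 3), 2.03 ± 0.223 and 2.61 ± 0.103 at Year 1, and 2.34 ± 0.192 and 3.57 ± 0.175 at Year 2. The 3 MWCNT rats at Year 2, at 3.37, 3.67 and 3.67, held the highest ratios of all 18 rats. The Pdgfra to Pdgfrb ratio was 1.29 ± 0.0558, 1.63 ± 0.291 and 1.21 ± 0.117 in control rats and 0.992 ± 0.116, 1.16 ± 0.144 and 0.971 ± 0.139 in MWCNT rats at the 3 years. The groups did not overlap in this ratio at Year 0.5, and at Year 1 the lowest control rat (1.29) lay just below the highest MWCNT rat (1.31). At Year 2 they nearly touched, with the lowest control rat at 1.107 and the highest MWCNT rat at 1.102. The summed TPM of the 4 ligands was 218 ± 35.8, 172 ± 17.2 and 212 ± 33.4 in control rats and 128 ± 7.42, 120.0 ± 14.7 and 116 ± 7.44 in MWCNT rats, and Pdgfb supplied 60.6% to 72.1% of that sum on average in each group. The share of Pdgfa was 28.1% ± 1.26 in control and 20.2% ± 0.499 in MWCNT rats at Year 2. No test was made on these ratios and shares.

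**Figure D4:**
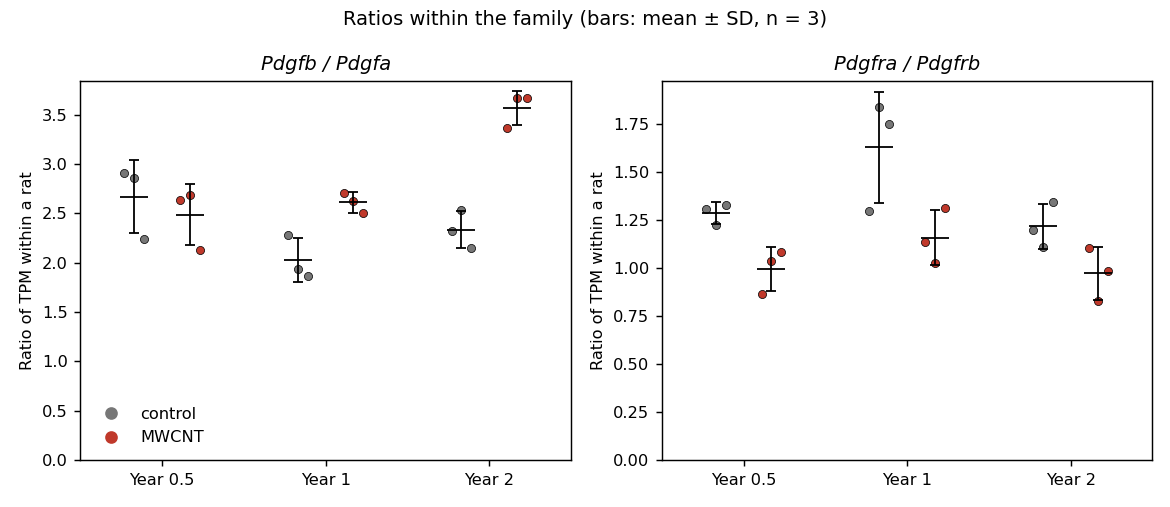
Ratio of Pdgfb to Pdgfa and of Pdgfra to Pdgfrb in TPM within each rat, grey for control and red for MWCNT, with mean ± SD (n = 3). At Year 2 the Pdgfb to Pdgfa ratio of the MWCNT rats (3.37 to 3.67) lay above that of the control rats (2.15 to 2.53).

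Change over time was tested in 1 edgeR model of all 18 rats, as Year 2 minus Year 0.5 within each treatment. In MWCNT rats Pdgfa was the only member to pass, falling by 0.45 on the log2 scale (SE 0.11, edgeR FDR 0.0140), where 13.5% of all genes tested passed in either direction. That call was lost without MWCNT Year 0.5 replicate 3 (FDR 0.0712) or MWCNT Year 2 replicate 1 (FDR 0.0506). Pdgfa in control rats changed by 0.11 (SE 0.11, FDR 0.589). In control rats 0 members passed in edgeR or DESeq2, beside 6.65% of all genes passing FDR in edgeR. Changes that did not pass were Pdgfc at 0.33 (SE 0.15, FDR 0.179), Pdgfd at -0.38 (SE 0.14, FDR 0.117), Pdgfra at -0.34 (SE 0.12, FDR 0.1003) and Pdgfrb at -0.26 (SE 0.10, FDR 0.126). These 4 had an unadjusted edgeR p under 0.05, a threshold at which the share of all genes was not counted. Of these, Pdgfd passed without control Year 0.5 replicate 2 (FDR 0.0468), and Pdgfra without MWCNT Year 1 replicate 2 (FDR 0.0246), a rat outside the contrast that enters through the shared estimate of spread. Pdgfra in MWCNT rats changed by 0.01 (SE 0.12, FDR 0.974).

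Whether the effect of MWCNT itself differed between Year 2 and Year 0.5 was tested as the interaction in the same model. With edgeR 0 of the 7 members passed, against 1.31% of all genes. Pdgfa and Pdgfrb had an unadjusted edgeR p under 0.05, where the share of all genes was not counted. The Pdgfa interaction was -0.55 (SE 0.16, edgeR FDR 0.0909), and it passed with DESeq2 at -0.56 (FDR 0.0309) and in edgeR without control Year 2 replicate 3 at -0.65 (FDR 0.0355). The smaller receptor differences at Year 2 gave interactions of 0.35 for Pdgfra (SE 0.18, edgeR FDR 0.389) and 0.31 for Pdgfrb (SE 0.14, FDR 0.355), which did not pass. A difference between years in the effect on the receptors was therefore not shown.

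Genes whose pattern over the 18 rats was most like each member were ranked by Pearson's r of log2 CPM, as a description. The rats share treatment and year, so r includes the difference between groups, and the value in parentheses is r of the deviations from the group means. Pdgfa was most like Tmem44 at r = 0.98 (0.83), followed by Grap, an adaptor protein, Mfng, a glycosyltransferase that modifies Notch, Septin4 and Tp53i11, all with r of 0.98. Pdgfb was most like Snai1 at 0.94 (0.87), which encodes a transcription factor of mesenchymal transition, then Midn at 0.93 (0.94), Tlnrd1, Hlx and Itga5, the fibronectin receptor subunit, at 0.91 (0.89). Pdgfd was most like Lmod1 (0.94) and Synpo2 (0.94), which encode actin-binding proteins of smooth muscle, then Tubb4a, Cfap70 and the club cell gene Scgb1a1 (0.93), but within groups the r of Lmod1 was only 0.49. Pdgfra was most like the glycine transporter gene Slc6a9 at 0.95 (0.77), then Rai14, Itpr1, Chst15 and the pericyte proteoglycan gene Cspg4 at 0.93 (0.84). Pdgfrb was most like Csnk1e at 0.86 (0.61), then Pth1r, Avil, Tns3 and Apc2. Pdgfc, whose closest gene was Sox6 at 0.77 (0.60), and Pdgfrl, whose closest was Susd5 at 0.83 (0.75), had no gene above those values. The remaining genes of their lists were Psat1, Slc27a2, Rtn4r and Epm2a for Pdgfc and Scn3a, Slc41a3, Sfrp1 and Pde1a for Pdgfrl.

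Among the members themselves, r over the 18 rats was 0.81 for Pdgfra with Pdgfd, 0.78 for Pdgfa with Pdgfd, 0.76 for Pdgfb with Pdgfrb and 0.75 for Pdgfa with Pdgfb. Within groups the first 2 of these were -0.24 and -0.20. The last 2 of these kept their sign within groups, at 0.84 for Pdgfb with Pdgfrb and 0.79 for Pdgfa with Pdgfb. Pdgfa with Pdgfrb stood at 0.69 within groups. Pdgfd also changed sign, from 0.45 to -0.31 with Pdgfb and from 0.51 to -0.41 with Pdgfrb. Pdgfa with Pdgfra, the gene of its main receptor, stood at 0.71 over the 18 rats and at 0.21 within groups. Within groups Pdgfrl stood at -0.77 with Pdgfa, -0.71 with Pdgfrb and -0.66 with Pdgfb, and Pdgfb with Pdgfc at -0.64. The values of Pdgfrl rest on only 15 to 50 counts per rat. Rats with more Pdgfb than others of their group tended to hold more Pdgfa and Pdgfrb, and less Pdgfc and Pdgfrl.

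More of the genes that mature or capture the ligands rose than fell. Of 10 tested, 6 rose and 1 fell at Year 0.5, 5 rose and 2 fell at Year 1, and 6 rose and 1 fell at Year 2, with a median log2 fold change of 0.46, 0.27 and 0.63. Of all genes tested, 20.2%, 21.6% and 25.2% rose at those years. Plau, which encodes urokinase and can release active PDGF-D, rose by 1.27 (SE 0.12, edgeR FDR 7.3e-05), 1.60 (SE 0.12, FDR 2.59e-05) and 1.86 (SE 0.12, FDR 4.08e-06). St14, which encodes matriptase, another protease of PDGF-D, rose by 0.77, 0.87 and 1.06 and Furin, whose product trims the A and B chains, by 0.29, 0.31 and 0.32. Plat, which encodes the tissue plasminogen activator that cleaves PDGF-C, fell at Year 1 by 0.44 (SE 0.09, FDR 0.00523) and stood at -0.17 (FDR 0.219) and 0.06 (FDR 0.566) at Year 0.5 and Year 2. A2m, which encodes the plasma protein alpha-2-macroglobulin that binds PDGF, rose from 0.225 ± 0.196 TPM in control to 18.3 ± 2.98 TPM in MWCNT rats at Year 2 (SD, n = 3), a log2 fold change of 6.56 (SE 0.40, FDR 2.91e-06).

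Genes that dephosphorylate the receptors or direct their turnover rose in 3, 2 and 5 of 8 tested at the 3 years, and 1 fell, at Year 0.5. These rises were 37.5%, 25% and 62.5% of the list, beside 20.2%, 21.6% and 25.2% of all genes, so that of Year 1 was near the background. The median log2 fold change was 0.20, 0.11 and 0.37. The number past FDR at Year 0.5 went from 4 to 2 without control replicate 1, control replicate 2 or MWCNT replicate 2, and that at Year 1 from 2 to 1 without control replicate 2. Ptpn1, a tyrosine phosphatase of PDGF receptors, rose by 0.52 (edgeR FDR 0.000993), 0.56 (FDR 0.000578) and 0.47 (FDR 0.00124). Ptprj, another such phosphatase, rose by 0.39 at Year 0.5 (FDR 0.00239) and by 0.56 at Year 2 (FDR 0.000268), and stood at 0.13 at Year 1 (FDR 0.168). The ubiquitin ligase genes Cbl and Cblb rose at Year 2, by 0.45 (FDR 0.0117) and 0.28 (FDR 0.0471), and did not pass earlier.

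Receptor adaptors and kinases, most of them shared by many receptors, passed the test in shares near or below those of all genes. Of 27 tested, 5 rose and 3 fell at Year 0.5, 4 rose and 4 fell at Year 1, and 7 rose and 4 fell at Year 2, and the median log2 fold change was 0.01, 0.04 and -0.02. The rises were 18.5%, 14.8% and 25.9% of the list, beside 20.2%, 21.6% and 25.2% of all genes, and the falls 11.1%, 14.8% and 14.8%, beside 18.6%, 19.6% and 24.0%. The 8 past FDR at Year 0.5 became 5 without control replicate 1 or MWCNT replicate 2, and the 8 at Year 1 became 5 without control replicate 2 or 3. Shc1, an adaptor that links receptors to Ras, rose by 0.65, 0.67 and 0.72 (highest edgeR FDR 0.000154), whereas Nck2, an adaptor to the actin skeleton, fell by 0.72, 0.66 and 1.08 (highest FDR 0.00121). Grb2 rose by 0.26 at Year 1 (FDR 0.0230) and by 0.28 at Year 2 (FDR 0.00496). The Ras exchange factor genes Sos1 and Sos2 fell at Year 1 alone, by 0.27 (FDR 0.0192) and 0.21 (FDR 0.0356).

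Feedback inhibitors of receptor tyrosine kinases went in both directions. Of 8 tested, 1, 1 and 2 rose and 2, 4 and 4 fell at the 3 years, with a median log2 fold change of -0.20, -0.25 and -0.28. The falls were 25%, 50% and 50% of the list, beside 18.6%, 19.6% and 24.0% of all genes. The 3 past FDR at Year 0.5 became 5 with library size scaling, and the 5 at Year 1 became 2 without control replicate 1 or 3 and 3 without control replicate 2 or MWCNT replicate 3. Spry1 fell by 0.64, 0.60 and 0.70 and Spry4 by 0.78, 0.51 and 0.82 (highest edgeR FDR 0.0473), and Spry2 fell by 0.34 at Year 1 and by 0.34 at Year 2. Dusp4, a phosphatase of MAP kinases, rose by 1.43, 1.44 and 1.87 (highest FDR 0.000168), and Spred1 rose at Year 2 by 0.40 (FDR 0.0243). Immediate early genes that growth factors induce showed 2, 4 and 4 rises and 2, 1 and 4 falls among 15 tested, with medians of -0.02, 0.06 and 0.29. The rises were 13.3%, 26.7% and 26.7% of that list and the falls 13.3%, 6.67% and 26.7%, beside 20.2%, 21.6% and 25.2% of all genes that rose and 18.6%, 19.6% and 24.0% that fell, so these counts were near the background or below it. The 4 past FDR at Year 0.5 became 2 without MWCNT replicate 2. Myc rose by 0.78, 0.69 and 1.10 and Egr2 by 0.95, 1.97 and 2.18, Fos rose at Year 2 by 0.74 (FDR 0.0158), and Egr1 (0.40, FDR 0.117) and Junb (0.25, FDR 0.190) did not pass at Year 2 or earlier.

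The other class III receptors, the nearest relatives of the PDGF receptors, were split. Of 7 tested receptors and their ligands, 3 rose at each year, and 2, 3 and 3 fell, with medians of -0.14, -0.25 and -0.05. The rises were 42.9% of the list at each year, beside 20.2%, 21.6% and 25.2% of all genes. The falls were 28.6%, 42.9% and 42.9%, beside 18.6%, 19.6% and 24.0%. Kit fell by 1.03, 0.79 and 1.31 (highest edgeR FDR 0.00308) and its ligand gene Kitlg by 0.53, 0.40 and 0.46 (highest FDR 0.0126). Csf1r, the macrophage receptor, rose by 0.34, 0.34 and 0.55 (highest FDR 0.0154) and Flt3, the dendritic cell receptor, by 0.76, 0.45 and 0.48 (highest FDR 0.0334).

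Markers of alveolar type 1 cells and of endothelium mostly fell as well. Beside them, 18.6%, 19.6% and 24.0% of all genes tested fell at the 3 years. Of 7 alveolar type 1 markers, 7, 6 and 7 fell at the 3 years, with a median log2 fold change of -0.65, -0.56 and -0.97, where Pdgfa stood at -0.56, -0.53 and -1.12. Among the first of them, Ager fell by 0.45 at Year 0.5 and 0.63 at Year 2, and Hopx, Rtkn2 and Aqp5 fell at every year, Rtkn2 by as much as 1.73 at Year 2. The summed TPM of the 7 genes was 5958 to 6981 over the control rats and 2709 to 4371 over the MWCNT rats, and none was at 0 in a group. Of 8 endothelial markers, 8, 7 and 7 fell, with medians of -0.69, -0.70 and -1.03, where Pdgfb stood at -0.69, -0.17 and -0.52. Cdh5, Cldn5 and Kdr fell at every year, and at Year 2 Cdh5 fell by 1.07, Cldn5 fell by 1.41 and Kdr fell by 1.58. Their summed TPM was 2568 to 3255 over the control rats and 945 to 1865 over the MWCNT rats. The part of these cells in the lower Pdgfa and Pdgfb was not tested.

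The receptor genes stood beside 2 lists of mesenchymal cells, in years when 18.6%, 19.6% and 24.0% of all genes tested fell. Of 10 alveolar fibroblast markers, 9, 7 and 8 fell and 1, 0 and 1 rose, with medians of -0.81, -0.68 and -0.67, where Pdgfra stood at -0.70, -0.84 and -0.35. Tcf21 fell by 0.43, 0.55 and 0.71, whereas Npnt rose by 0.23 at Year 0.5 and 0.44 at Year 2, Wnt2 fell by 0.85 at Year 0.5 and 0.61 at Year 2, and Itga8 fell by 0.52 and 0.56 at the first 2 time points and stood at -0.12 (edgeR FDR 0.244) at Year 2. The summed TPM was 937 to 1290 over the control rats and 521 to 833 over the MWCNT rats. Of 8 pericyte markers, 8, 7 and 6 fell and none rose, with medians of -0.59, -0.56 and -0.68, where Pdgfrb stood at -0.32, -0.38 and -0.03. Cspg4 fell by 0.60, 1.11 and 0.67 and Notch3 by 0.38, 0.54 and 0.26, while Rgs5 fell by 0.80 and 0.54 at the first 2 time points and stood at 0.30 (FDR 0.105) at Year 2, and Kcnj8 fell by 0.72 at Year 0.5. The summed TPM of the pericyte list was 442 to 580 over the control rats and 247 to 397 over the MWCNT rats. The part of these cells in the receptor levels was not tested.

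**Figure D5:**
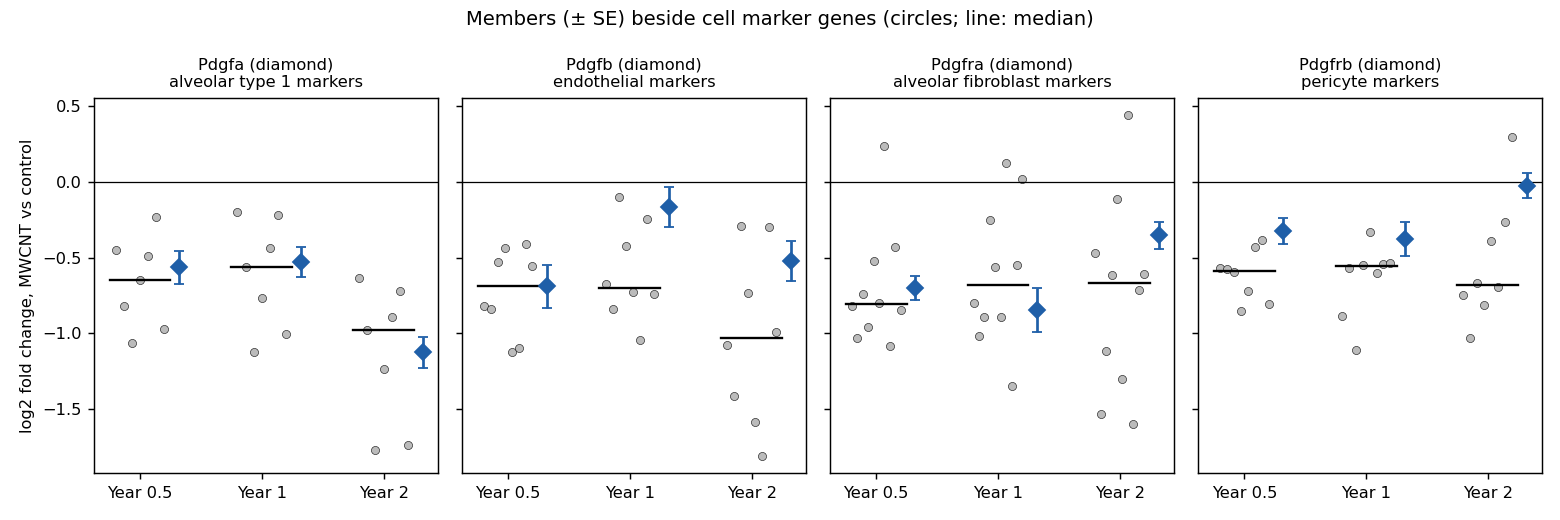
Log2 fold change, MWCNT against control, of 4 members (blue diamonds, ± SE) beside the single genes of a marker list (grey circles, line at the median) at the 3 years. At Year 2 Pdgfa (-1.12) lay near the alveolar type 1 median (-0.97), while Pdgfrb (-0.03) lay above the pericyte median (-0.68). The endothelial median of that year (-1.03) also lay near Pdgfa.

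The contractile genes listed for smooth muscle and myofibroblasts, 8 of 8, fell at every year, with medians of -0.72, -0.90 and -0.89. They do not tell smooth muscle from myofibroblasts. At Year 2 Acta2 fell by 0.67, Tagln fell by 0.88, Myh11 fell by 1.07 and Cnn1 fell by 1.31. The summed TPM of the 8 genes was 1062 to 1754 over the control rats and 533 to 848 over the MWCNT rats. Lmod1 and Synpo2, the genes most like Pdgfd, belong to this list. Adventitial fibroblast markers fell in 4 of 8 at each year, and 0, 1 and 2 rose, with medians of -0.49, -0.32 and -0.36. The falls were 50% of the list, beside 18.6%, 19.6% and 24.0% of all genes. The rises were 0%, 12.5% and 25% of it, beside 20.2%, 21.6% and 25.2%. Serpinf1, named after its values were seen, rose by 1.00 at Year 1 and by 2.38 at Year 2. Dcn and Dpt fell at every year, Dcn by 0.95, 0.92 and 1.31, Col14a1 fell at Year 1 by 0.77, and Pi16 rose at Year 2 by 0.92. Macrophage markers, 8 of 8, rose at every year with medians of 2.03, 1.77 and 2.64, and their summed TPM was 397 to 600 over the control rats and 2678 to 5285 over the MWCNT rats. Cd68, Marco, Mrc1 and Itgax each rose at every year, Cd68 by 2.44 at Year 0.5 and 3.03 at Year 2. Alveolar type 2 markers rose in 6, 5 and 6 of 6, with medians of 0.86, 0.79 and 0.97, and Sftpc rose by 0.96, 0.97 and 1.00. Sftpb, Abca3 and Lamp3 also rose at every year. The part of these cells in the levels of the PDGF genes was not tested.

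Platelets store PDGF, and their markers did not move one way. Of 6 tested platelet and megakaryocyte markers, 1 rose at each year and 2, 4 and 3 fell, with medians of -0.66, -0.79 and -0.84. The rises were 16.7% of the list at each year, below the 20.2%, 21.6% and 25.2% of all genes. The falls were 33.3%, 66.7% and 50% of it, beside 18.6%, 19.6% and 24.0%. Pf4, the only tested marker of the list that rose, did so by 1.47, 1.84 and 1.92, whereas Itga2b fell by 0.71, 0.46 and 0.65. The summed TPM, which includes Pf4, was 56.0 to 71.5 over the control rats and 108 to 146 over the MWCNT rats. Gp9 fell at Year 1 by 1.28, and Ppbp had too few counts to be tested. Airway epithelial markers fell in 2, 3 and 2 of 3 tested, with medians of -0.87, -0.91 and -0.80. These 3 are secretory cell genes, as the ciliated cell gene Foxj1 was not found under that symbol. Scgb1a1 and Cyp2f4 fell at every year and Scgb3a2 at Year 1, by 0.48. Mesothelial markers rose in 0, 3 and 1 and fell in 0, 0 and 1 of 5. At Year 2 the 20% that rose and the 20% that fell were near the 25.2% and 24.0% of all genes. Msln, Wt1 and Lrrn4 rose at Year 1, by 0.52, 0.94 and 0.55, Msln rose at Year 2 by 0.71 and Upk3b fell at Year 2 by 0.95. Heart muscle markers fell in 6 of 6 at Year 0.5, Myl2, Myh6, Tnnt2 and Actc1 among them. They fell in 1 of 6 at Year 1 (Myl2) and in 1 of 5 at Year 2 (Actc1). These 16.7% and 20.0% were near the 19.6% and 24.0% of all genes that fell in those years. The part of these cells in the levels of the PDGF genes was not tested.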

How the data were processed

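RNA-Seq had been performed on accessory lobe tissue of 18 rats, 3 in each of 6 groups, and groups and replicate numbers were taken from the sample labels. The authors processed the reads with CLC Genomics Workbench 22.0.2, and the submitters' processing notes name the builds Rnor_6.0 and rn6. The deposited tables give raw read counts per gene and TPM values made by the authors for each rat, and also CPM, RPKM and the authors' own group comparisons, which were not used here. Whether reads were counted by strand is not given in the sources used here, so reads of overlapping antisense genes cannot be told apart.

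Counts were tested with edgeR 4.0.16 (R 4.3.3) by its quasi-likelihood test over all genes left by filterByExpr (minimum count 10, minimum total 15), with TMM scaling. Each year was fitted with its 6 rats, and time and interaction with all 18 rats. FDR is the Benjamini-Hochberg value over all genes tested, the threshold was 0.05, and a DEG also had an absolute log2 fold change above 1, the criterion of the study. The SE is the log2 fold change divided by the root of the F statistic. TMM-adjusted CPM per rat was computed from the counts over all 18 rats, and similarity used a prior count of 2. Scripts were tested on simulated data.

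Alternatives were DESeq2 1.42.0, library size scaling, other filters, limma 3.58.1 on log2(TPM + 1) and log2(TPM + 0.1), 1 fit of all rats, a replicate block and leaving out each rat. The text names the 7 members, the first 4 genes of each list and the 5 genes most like each member. It also names the gene of each pathway list with the largest change past FDR at Year 2, and Serpinf1, chosen after its values were seen. The members and lists were chosen with earlier results of these data known. Lists hold 6 pathway groups and 12 cell types. Symbols with no row of that name in the tables, Pecam1 and Foxj1 among them, were left out of the counts. Promoter windows were matched by symbol for 5 of the 7 members from RefSeq (GRCr8). Counting error aside, 3 rats per group limit the precision.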

Additional observations from a re-analysis of the deposited data

How the results depend on the processing

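With other settings no member changed direction where it had been called. Of the counts of members under other settings, 162 were within 1.5 times the reported one and 9 were not. Of the counts of genes past FDR in the pathway lists, 166 were within that range and 14 were not. The number of DEGs among the members at Year 1 was 1 with library size scaling (Pdgfd), 1 with limma on log2(TPM + 1) (Pdgfra) and 2 with limma on log2(TPM + 0.1) (Pdgfd and Pdgfra), against 0 reported. The interaction gave 1 member (Pdgfa) with DESeq2. As single rats were left out, the interaction ranged from 0 to 1 member, the time change in control rats from 0 to 1 and that in MWCNT rats from 0 to 1. limma on log2(TPM + 1) also called Pdgfb at Year 1, and Pdgfc and Pdgfrb at Year 2, each lower in MWCNT. The median gene of these limma fits was itself shifted by -0.21 at Year 1 and -0.20 at Year 2. The cause of these calls was not tested. Of the values of single members under other settings, 865 stayed on the same side of the threshold, 10 passed the threshold where the reported value had not and 7 no longer passed.

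Replicate numbers did not pair the rats: of 9 pairs of same-numbered rats, 1 correlated above 0.1 (range -0.147 to 0.107). A replicate block left the number of members that fell at 5, 4 and 4 at the 3 years. Depth limited Pdgfrl most, at 15 to 50 counts per rat.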
